A study of Mus musculus with 100 samples.

Results

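A set of 10 genes of the bone morphogenetic protein (BMP) pathway were followed through the RNA libraries of this study: the ligand genes Bmp2, Bmp4, Bmp5, Bmp6, Bmp7 and Bmp8b, the secreted antagonist Nog, and the target genes Id1, Id2 and Id3. They are 10 of the 23109 gene-level entries of each table, and were chosen by their measured read counts in these same libraries, in the contrast of KI with flox or control. Their KI differences are therefore given as a description, without a test, while differences between stages and lineages within a genotype, which did not enter the choice, were tested. In all, 37 libraries in 18 groups were read, with 1 library in 3 groups, 2 in 11 and 3 in 4.

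The study concerns the histone methyltransferases MLL3 and MLL4, encoded by Kmt2c and Kmt2d. All cultured cells were Mll3-/-. The reference cells, called flox, were Mll3-/-;Mll4flox/flox and so kept Mll4, and the KI cells were Mll3-/-;Mll4KI/KI, as 2 lines named KI27 and KI48. The labels do not spell out KI. Stem cells (ESCs) were sampled undifferentiated in 2i and LIF, as embryoid bodies (EBs) at day 4 and day 10, as neural progenitors (day 8) and neurons (day 16) made with retinoic acid, as trophectoderm (TE) cultures at day 6 after induction of a doxycycline-driven CDX2 transgene, and as extraembryonic endoderm (ExEn) cultures at day 5 with retinoic acid and activin A. The media differed in serum, with 2% in EBs and neural progenitors, 15% in ExEn and 20% in TE, and TE medium also held FGF4, heparin and medium conditioned by fibroblasts. The lineage and its medium therefore cannot be told apart where TE and ExEn are compared. No serum figure is given for ESCs or neurons. Stage and medium therefore cannot be told apart in the steps from ESC to EB and from progenitor to neuron either. In ESCs and EBs flox had 1 library a day and KI 2, and the neural, TE and ExEn groups had 2 each. KI embryos were Mll3flox/KI;Mll4flox/KI;Sox2-Cre and control embryos Mll3flox/KI;Mll4flox/+;Sox2-Cre, with 3 libraries of each at embryonic day E8.5 and at E9.5. Embryos of both genotypes thus carried the Cre, which is active in the epiblast, and a KI allele of Mll3. Nothing in the labels says that the 2 flox libraries of a group came from separate cultures, so p-values measure the spread between these samples, which may be technical.

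BMPs are secreted dimers that bind receptor kinases of type I and type II, which phosphorylate SMAD1, SMAD5 and SMAD9. These SMADs enter the nucleus with SMAD4 and act on target genes, of which the ID genes are the textbook example. ID proteins hold a helix-loop-helix domain without the basic DNA-binding part, pair with factors of the basic helix-loop-helix class, and keep them from DNA. In the early embryo BMP signals from extraembryonic tissue help to form mesoderm and germ cells, and in the neural tube BMPs from the roof plate pattern the dorsal side, while noggin, the product of Nog, binds the ligands and blocks them.

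The sequence just before the start of 3 ID genes is shown because these genes took different courses in the neurons below. The sequences are from RefSeq, assembly GRCm38.p6, 5′ to 3′ on the strand of the gene, and cover the 250 bases before the annotated start. They lie at chr4:136143572-136143821 on the + strand for Id3, chr12:25096093-25096342 on the - strand for Id2 and chr13:48260866-48261115 on the + strand for Id4. Of the 10 genes, 6 were in the promoter table, and Bmp2, Bmp7, Id1 and Nog were not. Capitals mark matches on either strand to GGCGCC, a palindromic motif bound by SMADs of the BMP branch, and to GTCT, the short SMAD-binding motif, which reads as agac on the other strand.
Id3: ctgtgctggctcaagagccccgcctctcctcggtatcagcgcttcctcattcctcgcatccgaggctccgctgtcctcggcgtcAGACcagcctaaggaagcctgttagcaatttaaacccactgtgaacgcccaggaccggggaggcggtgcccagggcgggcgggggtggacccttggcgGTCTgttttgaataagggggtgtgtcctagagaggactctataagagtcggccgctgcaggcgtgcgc
Id2: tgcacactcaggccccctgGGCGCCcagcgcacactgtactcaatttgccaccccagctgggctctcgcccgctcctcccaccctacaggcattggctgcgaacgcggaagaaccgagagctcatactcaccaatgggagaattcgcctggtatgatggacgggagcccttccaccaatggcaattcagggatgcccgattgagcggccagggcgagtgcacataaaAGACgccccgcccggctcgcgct
Id4: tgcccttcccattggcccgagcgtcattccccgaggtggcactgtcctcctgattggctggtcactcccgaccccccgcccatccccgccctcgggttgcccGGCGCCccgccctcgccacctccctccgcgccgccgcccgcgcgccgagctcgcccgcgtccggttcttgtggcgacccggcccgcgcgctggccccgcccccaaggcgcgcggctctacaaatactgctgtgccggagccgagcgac
Id3 held GTCT 68 bases before the start, and its reverse complement 166 bases before. Id2 held GGCGCC at 231 bases and the reverse complement of GTCT at 23 bases, and Id4 held GGCGCC at 148 bases and no GTCT. Of 32851 windows of the same length in the table, 9.59% held GGCGCC and 82.9% held GTCT, so that GTCT in particular is a common match.

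Gene-level totals were 18.9 M to 59.9 M reads a library (M, 1000000 reads), highest in the 8 neural libraries at 39.0 M and above. Levels are counts per M gene-level reads (CPM), and a gene at 0 reads may hold up to 3, or from 0.0501 to 0.159 CPM by the depth of the library, for counting error only. Kmt2c gave 27.6 to 99.4 CPM and Kmt2d 149 to 334 CPM across all libraries, and gene totals cannot show a deleted exon or a point change, so the genotype labels were not checked by them. Levels are compared between genes only by the deposited RPKM, which divides reads by transcript length. In bulk samples fewer cells of a type and less RNA per cell cannot be told apart.

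The leading ligand differed between lineages. Of the summed RPKM of the 6 ligands, Bmp7 made up 79.7% ± 0.505 (SD, n = 2) in flox neural progenitors and 67.1% in flox neurons, and Bmp4 made up 9.48% and 12.2%. Bmp7 also led in ESCs, with 56.3% in flox and 70.8% in KI. Bmp4 led in most other groups, with 48.8% in the flox EB library at day 4, 50.5% at day 10, 46.4% in flox ExEn, 43.7% to 53.1% in control embryos at E8.5 and 41.9% to 52.1% at E9.5. Bmp8b, which acts with Bmp4 in germ cell induction, was 16.9% and 17.2% of the sum in flox TE and 40.8% in KI TE, where it ranged from 38.1% to 43.5% against 32.4% to 41.0% for Bmp4. In ExEn it was 5.47% in flox and 22.9% in KI. Elsewhere the Bmp8b share stayed at or below 2.76%, except in EBs at day 4, where the KI libraries held 9.66% and 14.4%. Bmp8b and its neighbour Bmp8a are near-identical copies, so the split of reads between them is uncertain.

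**Figure D1:**
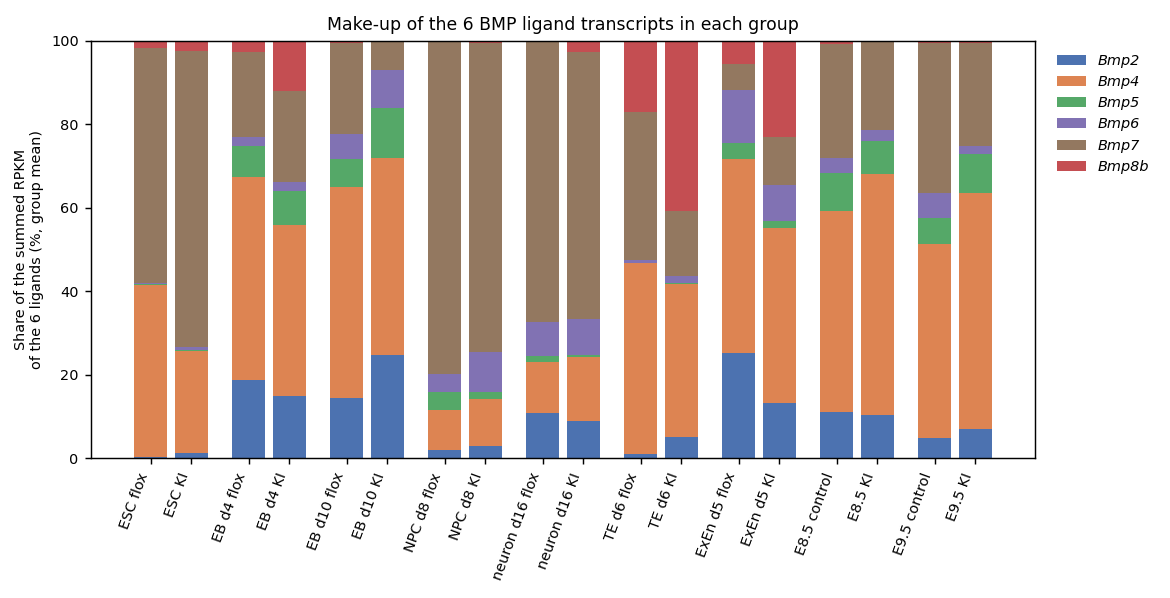
Stacked bars give each ligand's share (vertical axis, percent) of the summed deposited RPKM of Bmp2, Bmp4, Bmp5, Bmp6, Bmp7 and Bmp8b, as the mean of the libraries in each of the 18 groups (horizontal axis). Bmp7 takes the largest part of the neural bars, 79.7% in flox progenitors, and the Bmp8b part is 40.8% in KI trophectoderm against 16.9% and 17.2% in the flox libraries.

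Bmp4, the ligand best known for mesoderm induction, read at most 8.25 CPM in ESC and neural libraries and at least 15.8 CPM in all other libraries. In the EB course the flox libraries read 8.25 CPM in ESCs, 59.1 at day 4 and 90.1 at day 10. The KI libraries read 5.35 and 4.50 in ESCs, 19.1 and 15.8 at day 4, and 115 and 70.3 at day 10. Both KI lines were thus below flox at day 4 and on either side of it at day 10. Within KI, Bmp4 rose from ESCs to day 4 by 1.73 on the log2 scale (SE 0.28, edgeR adjusted p = 0.00295) and from day 4 to day 10 by 2.33 (SE 0.25, edgeR adjusted p = 0.00026). In embryos the control libraries read 48.1, 49.3 and 37.9 CPM at E8.5 and 37.2, 35.7 and 46.4 at E9.5, and the KI libraries 79.3, 83.5 and 101 at E8.5 and 83.0, 75.5 and 85.6 at E9.5. Every KI embryo library lay above every control library, by a fitted difference of 0.96 (SE 0.12) at E8.5 and 1.03 (SE 0.12) at E9.5 on the log2 scale. Between the stages Bmp4 passed the test in neither genotype (log2 difference -0.25 in controls and -0.18 in KI, edgeR adjusted p = 0.152 and 0.254), although in controls it passed without replicate 3 of E8.5 or without replicate 3 of E9.5 (adjusted p 0.0177 to 0.372 over 11 alternatives).

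In TE, Bmp4 read 77.6 and 74.9 CPM in flox and 44.0 and 58.9 in KI, and in ExEn 45.8 and 46.3 in flox and 49.0 and 64.2 in KI. Flox TE was above flox ExEn by 0.64 on the log2 scale (SE 0.15, edgeR adjusted p = 0.00372), while in KI the log2 difference was -0.17 (SE 0.15, edgeR adjusted p = 0.344, 0.0242 to 0.969 over 10 alternatives). The KI value rested on single libraries: it passed as -0.39 without TE KI48 and as -0.36 without ExEn KI27, and was 0.01 without TE KI27 and 0.03 without ExEn KI48. Whether the lineage difference itself differs between the genotypes is the same contrast as the one that chose the genes and was not tested. In the neural cultures flox read 7.40 and 7.09 CPM in progenitors and 6.32 and 6.02 in neurons, and KI 5.97 and 4.75 in progenitors and 3.18 and 2.71 in neurons. Bmp4 fell from progenitor to neuron in KI by 0.66 (SE 0.16, edgeR adjusted p = 0.0018) and the flox log2 difference of -0.20 (SE 0.15) did not pass (edgeR adjusted p = 0.241).

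Bmp2, a close relative of Bmp4 with a known role in heart formation, was nearly silent in ESCs, at 1 read in flox and 7 in each KI line. It read 28.4 CPM in flox EBs at day 4 against 7.40 and 8.37 in KI, and 32.3 at day 10 against 75.6 and 46.2. The order of the genotypes thus turned between the 2 days in the single flox library of each. Within KI it rose by 4.62 on the log2 scale to day 4 (SE 0.41, edgeR adjusted p = 0.000194) and by a further 2.86 to day 10 (SE 0.24, edgeR adjusted p = 7.31e-05). In ExEn Bmp2 read 33.5 and 30.1 CPM in flox and 20.6 and 24.0 in KI, and in TE 1.56 and 2.53 in flox and 8.21 and 9.54 in KI. The lineage difference, TE lower, was 4.04 in flox (SE 0.20, edgeR adjusted p = 4.29e-10) and 1.36 in KI (SE 0.17, edgeR adjusted p = 5.78e-06), each on the log2 scale. In neurons flox read 7.39 and 6.59 CPM and KI 2.76 and 1.64, after 2.16 and 1.66 in flox progenitors and 1.84 and 1.66 in KI progenitors. The rise to neurons was 1.91 in flox (SE 0.22, edgeR adjusted p = 6.32e-06). In KI the log2 difference was 0.53 (SE 0.24) and missed the threshold (edgeR adjusted p = 0.0602, 0.00516 to 0.584 over 10 alternatives), but passed without the KI48 neuron library. In embryos Bmp2 fell from E8.5 to E9.5 in controls by 1.40 (SE 0.32, edgeR adjusted p = 0.00817), from 16.8, 11.4 and 11.6 CPM to 3.65, 3.90 and 8.28. KI embryos read 18.6, 15.1 and 26.0 CPM at E8.5 and 15.2, 11.9 and 10.3 at E9.5, a log2 difference of -0.74 that missed the threshold (SE 0.30, edgeR adjusted p = 0.085). It passed with DESeq2 (-0.75, adjusted p = 0.0159) and with only those 2 groups fitted (edgeR adjusted p = 0.0137), in a range of 0.0137 to 0.238 over 11 alternatives.

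Bmp5 and Bmp6 belong with Bmp7 to another branch of the family. Bmp5 fell from progenitor to neuron in both genotypes, by 2.15 in flox (SE 0.33, edgeR adjusted p = 7.53e-05) and 3.35 in KI (SE 0.56, edgeR adjusted p = 0.00012). Its flox libraries went from 4.29 and 4.34 CPM to 1.04 and 0.846. Its KI libraries went from 1.13 and 1.00 CPM to 10 reads in KI27 and 0 in KI48, so KI was below flox at both days. In TE Bmp5 was close to absent, at 2 reads in each flox library and 2 and 14 in KI, against 90 and 105 reads in flox ExEn. Summed over libraries the flox ratio of ExEn to TE was 61.0, with an exact 95% counting interval of 23.5 to 226. In EBs at day 4 Bmp5 read 11.5 CPM in flox and 4.07 and 4.71 in KI, and at day 10 15.6 in flox and 33.4 and 24.9 in KI. From KI ESCs, with 0 and 3 reads, to KI EBs at day 4 the summed ratio was 69.3 (95% counting interval 23.3 to 339). In embryos Bmp5 fell with stage in controls, from 14.6, 8.41 and 9.86 CPM to 7.23, 6.31 and 6.58 (log2 difference -0.76, SE 0.17, edgeR adjusted p = 0.003). In KI it read 15.8, 14.7 and 14.6 CPM at E8.5 and 15.2, 18.8 and 16.4 at E9.5 (0.09, SE 0.16, edgeR adjusted p = 0.71).

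Bmp6 was highest in KI EBs at day 10, with 21.3 and 19.4 CPM against 12.6 in flox, and in ExEn, with 16.1 and 14.6 in flox and 14.4 and 13.2 in KI. In TE it read 1.60 and 0.691 CPM in flox and 2.65 and 3.16 in KI, so that TE lay below ExEn by 3.84 in flox (SE 0.28, edgeR adjusted p = 2.5e-08) and by 2.27 in KI (SE 0.25, edgeR adjusted p = 1.52e-06) on the log2 scale. Neural flox libraries read 4.17 and 3.73 CPM in progenitors and 4.69 and 5.13 in neurons, and KI libraries 4.34 and 6.84, then 2.41 and 1.67. The KI fall of 1.26 passed the test (SE 0.23, edgeR adjusted p = 0.000251) and the flox log2 difference of 0.34 did not (SE 0.22, edgeR adjusted p = 0.174), although it passed with only those 2 groups fitted (edgeR adjusted p = 0.0412) and with the replicate block (0.0326, range 0.0326 to 0.412 over 10 alternatives). At E9.5 Bmp6 was the ligand with the opposite order to Bmp4, with 6.07, 6.87 and 5.82 CPM in controls and 2.32, 3.69 and 4.07 in KI embryos, and the 2 groups did not overlap.

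Bmp7 was the ligand with the highest neural level. Flox progenitors read 60.7 and 59.5 CPM and KI progenitors 33.7 and 36.6, and neurons 30.5 and 37.2 in flox and 12.0 and 12.1 in KI. It fell with the step to neurons by 0.80 in flox (SE 0.11, edgeR adjusted p = 2.52e-05) and by 1.34 in KI (SE 0.11, edgeR adjusted p = 2.28e-07). KI was below flox at both days, by 0.74 (SE 0.11) and 1.29 (SE 0.11) on the log2 scale. In TE flox read 58.5 in both libraries and KI 23.7 and 19.1, whereas in ExEn flox read 6.25 and 5.98 and KI a mean of 15.6 ± 0.641 (SD, n = 2). The gap between the lineages was 3.17 in flox (SE 0.14, edgeR adjusted p = 1.27e-10) and 0.43 in KI (SE 0.13, edgeR adjusted p = 0.00741) on the log2 scale, TE higher in both, and the KI gap failed the test without the KI27 TE library (0.25, adjusted p = 0.121). In EBs KI stayed below flox at both days, with 9.14 in each KI line against 24.2 CPM at day 4, and 12.4 and 12.2 against 38.4 at day 10. Bmp7 was the ligand that passed upward at neither EB step in KI. It fell from ESCs to day 4 by 0.72 (SE 0.14, edgeR adjusted p = 0.0042), and from day 4 to day 10 the log2 difference of 0.35 missed the threshold (SE 0.14, edgeR adjusted p = 0.0556), but passed with RLE size factors (adjusted p 0.0317 to 0.187 over 9 alternatives). Embryo libraries of all 4 groups lay between 22.1 and 36.3 CPM and the groups overlapped at each stage.

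Bmp8b was a transcript of the extraembryonic cultures. TE libraries read 42.7 and 40.9 CPM in flox and 87.3 and 80.8 in KI, and ExEn libraries 8.47 and 7.56 in flox and 53.2 and 37.4 in KI. KI was higher in both lineages, by 1.04 (SE 0.13) and 2.47 (SE 0.16) on the log2 scale. TE was above ExEn by 2.29 in flox (SE 0.16, edgeR adjusted p = 9.81e-08) and 0.86 in KI (SE 0.13, edgeR adjusted p = 0.000106). The pathway list holds its neighbour Bmp8a, which was also higher in KI, by 1.15 in TE (SE 0.19, edgeR adjusted p = 0.000174) and 1.92 in ExEn (SE 0.22, edgeR adjusted p = 9.16e-06), at 5.57 and 5.84 CPM in flox TE and 12.1 and 12.6 in KI TE. In EBs Bmp8b peaked at day 4, with 4.85 CPM in flox and 9.46 and 5.75 in KI, and it fell by 2.73 to day 10 in KI (SE 0.36, edgeR adjusted p = 0.000318) after a rise of 3.22 (SE 0.37, edgeR adjusted p = 0.000355). Neural and embryo libraries stayed at or below 1.41 CPM. In the neural groups this was 4 to 44 reads a library, highest in KI neurons, and the flox rise from progenitor to neuron (1.40, SE 0.45, edgeR adjusted p = 0.0134) failed without the first progenitor library or the second neuron library and in DESeq2 (adjusted p 0.0127 to 0.084 over 10 alternatives).

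**Figure D2:**
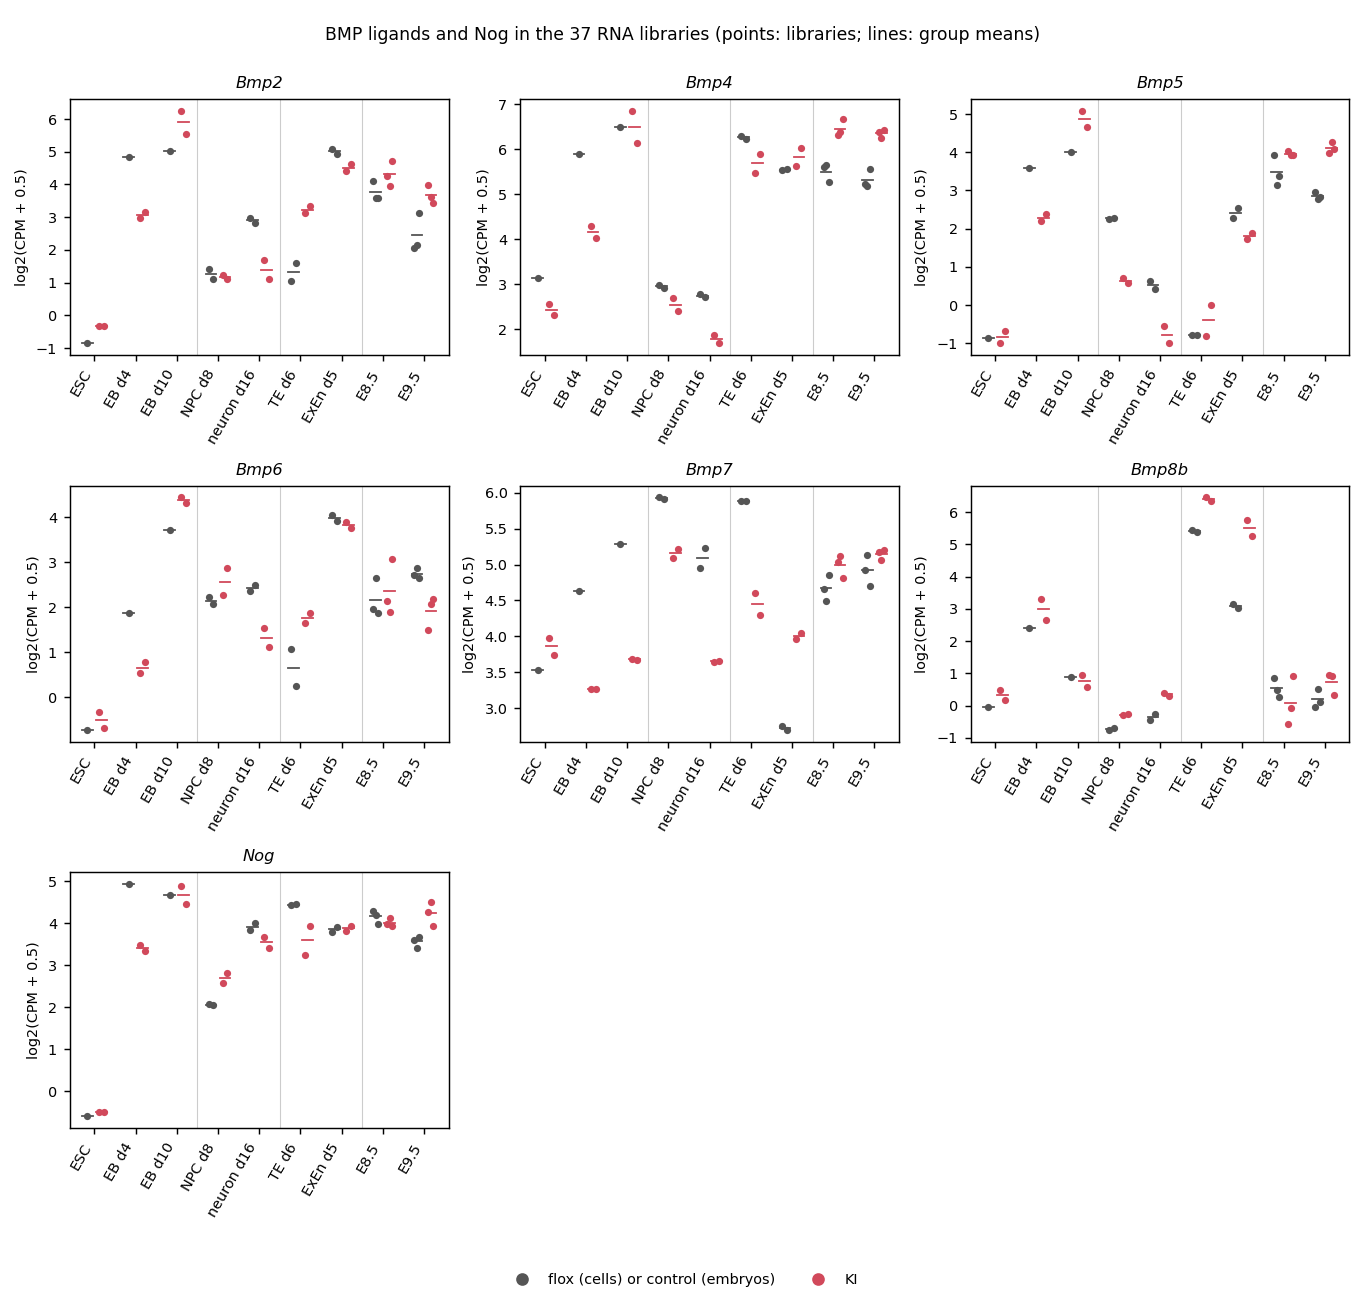
Each panel plots log2(CPM + 0.5) of 1 gene (vertical axis) in every library of the 9 stages or tissues (horizontal axis), grey for flox or control and red for KI, with a line at the mean of the log values. Bmp4 points of KI embryos lie above all control points at both stages, and the KI points of Bmp7 at EB day 10 (12.4 and 12.2 CPM) lie below the flox point (38.4 CPM).

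Nog, which encodes the antagonist noggin, was nearly silent in ESCs. It had 3 reads in flox ESCs and 5 in each KI line, then 30.1 CPM in flox against 10.6 and 9.64 in KI at day 4, and 25.1 against 29.3 and 21.6 at day 10. The rise to day 4 in KI was 5.45 on the log2 scale (SE 0.28, edgeR adjusted p = 7.29e-06) and that to day 10 a further 1.25 (SE 0.17, edgeR adjusted p = 0.000427). It rose from progenitor to neuron by 2.03 in flox (SE 0.15, edgeR adjusted p = 7.76e-08) and 1.11 in KI (SE 0.14, edgeR adjusted p = 1.26e-05), while Bmp7 fell. The libraries read 3.69 and 3.64 CPM in flox progenitors, 5.44 and 6.53 in KI progenitors, 13.7 and 15.5 in flox neurons and 12.3 and 10.2 in KI neurons. In TE Nog read 21.1 and 21.3 CPM in flox and 8.97 and 14.9 in KI, and in ExEn 13.3 and 14.6 in flox and 13.5 and 14.9 in KI. Its TE to ExEn difference in flox (0.51, SE 0.19, edgeR adjusted p = 0.028) failed when any 1 of the 4 flox libraries was left out (adjusted p 0.000273 to 0.149 over 10 alternatives). In KI the log2 difference of -0.28 did not pass (SE 0.19, edgeR adjusted p = 0.218), but was -0.68 and passed without TE KI48 (adjusted p 0.00314 to 0.932 over 10 alternatives). In controls Nog fell from E8.5 to E9.5 by 0.68 (SE 0.15, edgeR adjusted p = 0.0021), from 19.2, 17.9 and 15.3 CPM to 11.6, 10.2 and 12.3. KI embryos read 15.3, 16.8 and 14.7 CPM at E8.5 and 18.6, 22.2 and 14.8 at E9.5 (log2 difference 0.18, SE 0.15, edgeR adjusted p = 0.371).

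Of the target genes, Id3 had a higher mean RPKM than Id1 and Id2 in every group except KI neurons. Id3 made up 71.0% of the summed RPKM of Id1 to Id4 in flox ESCs, 61.5% in flox progenitors and 56.2% to 57.2% in control embryos at E8.5. The neurons stood apart. In flox neurons Id3 made up 35.7% and 41.9% and Id4 30.7% and 35.9%. In KI neurons Id3 made up 4.73% to 8.10% and Id4 73.4% to 81.2%.

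Id3 read 203 and 209 CPM in flox progenitors and 64.3 and 88.4 in flox neurons, and 175 and 130 in KI progenitors and 8.51 and 5.51 in KI neurons. The fall from progenitor to neuron was 1.40 in flox (SE 0.21, edgeR adjusted p = 0.000254) and 4.24 in KI (SE 0.25, edgeR adjusted p = 2.11e-07) on the log2 scale. The KI neurons thus held the lowest Id3 of all 18 groups. Id1 went the same way, from 43.9 and 45.9 to 24.4 and 34.3 CPM in flox, and from 23.0 and 20.5 to 3.92 and 2.89 in KI. Its fall was 0.58 in flox (SE 0.15, edgeR adjusted p = 0.00414) and 2.48 in KI (SE 0.18, edgeR adjusted p = 4.47e-08). For Id2 the genotypes lay closer, with falls of 1.61 in flox (SE 0.10, edgeR adjusted p = 1.1e-08) and 2.15 in KI (SE 0.10, edgeR adjusted p = 5.75e-10). It read 98.5 and 99.7 CPM in flox progenitors, 99.6 and 96.6 in KI progenitors, 34.0 and 29.4 in flox neurons and 20.5 and 17.9 in KI neurons. Against flox, KI neurons were lower by 3.25 for Id3 (SE 0.24), 2.91 for Id1 (SE 0.18) and 0.52 for Id2 (SE 0.10), where the median over all genes tested was 0.09. Id4, a pathway list gene and the remaining ID family member, had the opposite order in neurons, at 113 CPM in both flox libraries and 134 and 165 in KI (log2 difference 0.61, SE 0.11, edgeR adjusted p = 0.000753). In progenitors it was lower in KI by 0.58 (SE 0.12, edgeR adjusted p = 0.00462), which failed without the KI48 progenitor library (-0.50, adjusted p = 0.074).

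In progenitors both KI libraries lay below flox for Bmp4, Bmp5, Bmp7, Id1 and Id3, and above it for Bmp6, Bmp8b and Nog. The list gene Msx2 was higher in KI, and markers of other cells differed too. Of 7 tested ExEn markers 6 were lower in KI and 0 higher, summed at 118 to 119 CPM in flox and 37.3 to 41.9 in KI. Of 6 mesothelial and fibroblast markers 4 were lower and 0 higher, at 320 CPM in flox and 105 to 149 in KI, and all 3 endothelial markers were lower. Of 3 tested blood markers 2 were lower and 0 higher, at 7.63 to 7.93 and 0.62 to 0.859 CPM. Of 5 neuron markers 4 were lower and 0 higher, at 1261 to 1281 and 815 to 951 CPM. Higher in KI were 2 of 4 roof plate markers, at 307 to 310 and 364 to 409 CPM, and 3 of 5 neural progenitor markers, at 1222 to 1243 and 1327 to 1353 CPM, with 0 lower in either list. The part of these cells in the progenitor levels was not tested.

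Markers of non-neural cells moved with the genotype in the neurons. All 6 mesothelial and fibroblast markers were lower in KI, with a summed level of 3385 to 3562 CPM in flox and 684 to 883 in KI and Msln at or under 3 reads in each KI library, and the 5 neuron markers were all higher, at 2778 to 3064 CPM summed in flox and 4489 to 4973 in KI. The summed endothelial markers, 1 of 3 lower by the test, were 43.8 to 46.3 CPM in flox and 1.42 to 3.74 in KI. Of 4 astrocyte markers 3 were lower and 1 higher, summed at 271 to 276 CPM in flox and 150 to 160 in KI. Of 4 roof plate markers 2 were lower and 0 higher, at 223 to 235 and 154 to 180 CPM. Of 7 tested ExEn markers 3 were lower and 1 higher, at 76.2 to 77.3 and 10.9 to 21.5 CPM. The part of these cells in the Id1 and Id3 levels was not tested.

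**Figure D3:**
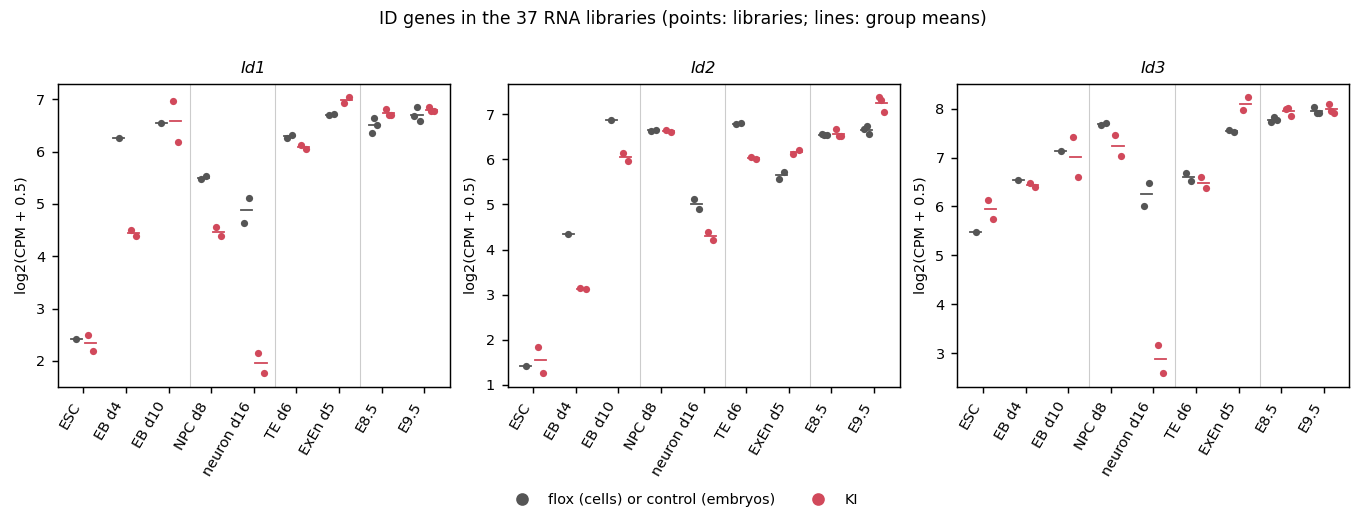
Each panel plots log2(CPM + 0.5) of Id1, Id2 or Id3 (vertical axis) in every library of the 9 stages or tissues (horizontal axis), grey for flox or control and red for KI, with a line at the mean of the log values. KI neurons hold the lowest Id3 points (8.51 and 5.51 CPM), and the KI embryo points of Id1 and Id3 lie above the control points at E8.5 and overlap with them at E9.5.

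In EBs the ID genes came up at different times. Id3 was already at 43.8 CPM in flox ESCs and 69.5 and 53.4 in KI, while Id1 read 4.87, and 5.13 and 4.04, and Id2 2.17, and 3.10 and 1.89. At day 4 Id1 read 76.0 CPM in flox and 22.3 and 20.5 in KI, Id2 19.9 against 8.36 and 8.19, and Id3 92.5 against 88.6 and 83.3. Id1 and Id2 were thus lower in both KI lines by more than 2-fold, and Id3 was near the flox level. By day 10 the KI lines lay on either side of flox for Id1 (125 and 72.5 CPM against 93.3) and Id3 (170 and 97.1 against 141), and below it for Id2 (70.0 and 61.9 against 116). In KI Id1 rose by 2.12 to day 4 (SE 0.30, edgeR adjusted p = 0.002) and by 2.12 again to day 10 (SE 0.27, edgeR adjusted p = 0.000611), and Id2 rose by 1.63 (SE 0.20, edgeR adjusted p = 0.000508) and 2.91 (SE 0.17, edgeR adjusted p = 7.11e-06). The Id3 differences of 0.39 (SE 0.27, edgeR adjusted p = 0.286) and 0.55 (SE 0.27, edgeR adjusted p = 0.113) did not pass. With the line as a block the second was 0.51 and passed (edgeR adjusted p = 0.0294, 0.00166 to 0.537 over 9 alternatives).

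In the extraembryonic cultures Id1 and Id3 were higher in ExEn and Id2 in flox TE. Id1 read 76.1 and 79.8 CPM in flox TE, 69.6 and 65.7 in KI TE, 103 and 105 in flox ExEn and 121 and 131 in KI ExEn. Id3 read 103 and 91.5, 96.8 and 82.1, 189 and 183, and 252 and 300 in the same order. TE was below ExEn for Id1 by 0.51 in flox (SE 0.07, edgeR adjusted p = 1.96e-05) and 0.92 in KI (SE 0.07, edgeR adjusted p = 3.97e-08), and for Id3 by 1.03 in flox (SE 0.11, edgeR adjusted p = 1.73e-05) and 1.65 in KI (SE 0.11, edgeR adjusted p = 4.96e-07). Id2 read 109 and 111 CPM in flox TE and 46.8 and 52.3 in flox ExEn (log2 difference 1.06, SE 0.08, edgeR adjusted p = 2.14e-08). In KI it read 65.7 and 63.7 in TE and 68.6 and 73.1 in ExEn (-0.16, SE 0.08, edgeR adjusted p = 0.0784). The KI libraries were lower than flox in TE and higher in ExEn, so that the 2 lineages came to similar Id2 levels in KI. The lineage markers differed between the genotypes too. All 8 ExEn markers were lower in KI ExEn, summed at 902 to 926 CPM in flox and 229 to 234 in KI, with Ttr at or under 3 reads in each KI library. In TE 5 of 7 trophoblast markers were higher and 1 lower in KI, summed at 361 to 366 CPM in flox and 688 to 770 in KI, and all 5 pluripotency markers were lower, at 669 to 680 and 229 to 314 CPM. Mesothelial and fibroblast markers were lower for 5 of 6 in KI TE, at 90.7 to 93.7 and 25.1 to 36 CPM, and in KI ExEn for 3 of 6 with 1 higher, at 1898 to 1987 and 251 to 405 CPM. Of 5 neural progenitor markers 3 were lower and 0 higher in KI TE, at 329 to 346 and 62.1 to 83.2 CPM. Of 4 tested neuron markers 3 were lower and 0 higher, at 97.7 to 103 and 18 to 20.7 CPM. In KI ExEn these 2 lists went both ways, with 2 lower and 1 higher, and 2 lower and 2 higher. The part of the cells with any of these markers in the Id2, Bmp7 and Bmp8b levels was not tested.

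Over all 12 embryo libraries Id1 lay between 81.5 and 116 CPM and Id3 between 212 and 275, and neither passed the test between the stages in controls (log2 difference 0.13 and 0.11, edgeR adjusted p = 0.261 and 0.247) or KI (0.00 and -0.03, edgeR adjusted p = 0.973 and 0.811). At E8.5 every KI library lay above every control library, for Id1 with 112, 104 and 103 CPM against 81.5, 100 and 91.2, and for Id3 with 253, 257 and 232 against 212, 226 and 219. The fitted KI differences were 0.22 (SE 0.08) and 0.18 (SE 0.07) on the log2 scale. Here, as for Bmp4 and Bmp6 in embryos above, the share of all genes that separate this way is not given. The separation is therefore only a description. At E9.5 the groups overlapped for both genes, with differences of 0.09 (SE 0.08) and 0.04 (SE 0.07). Id2 read 93.6, 92.3 and 92.0 CPM in controls and 101, 90.8 and 91.7 in KI at E8.5, and 102, 106 and 93.7 in controls and 165, 159 and 132 in KI at E9.5. It rose with stage in KI by 0.62 (SE 0.08, edgeR adjusted p = 1.23e-05) and the control difference of 0.06 did not pass (SE 0.08, edgeR adjusted p = 0.661). At E9.5 all 4 cardiac markers were higher in KI embryos, summed at 248 to 341 CPM in controls and 547 to 1096 in KI, and all 5 neuron and all 5 neural progenitor markers were lower, the neuron sum being 150 to 230 and 40.8 to 44.1 CPM. Of 7 trophoblast markers 2 were higher and 0 lower at E8.5, summed at 181 to 231 CPM in controls and 345 to 379 in KI, and 3 were higher and 0 lower at E9.5, at 60.7 to 119 and 217 to 231 CPM. Of 8 ExEn markers 3 were higher and 0 lower at E8.5, with overlapping sums of 214 to 362 and 243 to 415 CPM, and 4 were higher and 0 lower at E9.5, at 134 to 142 and 304 to 381 CPM. Of 4 roof plate markers 2 were lower in KI at E8.5, summed at 66.7 to 82.7 CPM in controls and at most 46.8 in KI, and 3 at E9.5, at 144 to 186 and 106 to 122 CPM. Blood markers summed to 357 to 773 CPM in controls and 62.9 to 123 in KI at E8.5, and to 2019 to 5618 and 379 to 1958 CPM at E9.5, and of the 4 markers 1, at E9.5, passed the test (lower in KI). The part of these cells in the levels of Bmp2, Bmp4, Bmp5 and the ID genes was not tested.

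Across the contrasts that played no part in the choice, 8 of 10 members passed between flox neurons and progenitors, where 77.1% of all genes tested passed. In KI 9 of 10 passed, against 79.9% of all genes. Between TE and ExEn 10 of 10 passed in flox (64.7% of all genes) and 7 of 10 in KI (63.1%). Between E9.5 and E8.5, Bmp2, Bmp5 and Nog passed in controls, 3 of 10 (24.2% of all genes), and 1 of 10 in KI, Id2 (32.5%). In KI 9 of 10 passed between EB day 4 and ESCs (50.3%), with 8 of them higher (26.5% of all genes), and 8 of 10 between day 10 and day 4 (73.3%), with 7 higher (36.7%). All 10 members passed the filter on low counts in each fit, some only through the groups where they were high. In the KI EB fit Bmp2, Bmp5, Bmp6 and Nog had at most 7 reads in each ESC library and passed through the EB groups. Bmp5 had 2 to 14 reads in TE libraries and passed through ExEn. The counts that include these genes are a description, and nothing is read from them.

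**Figure D4:**
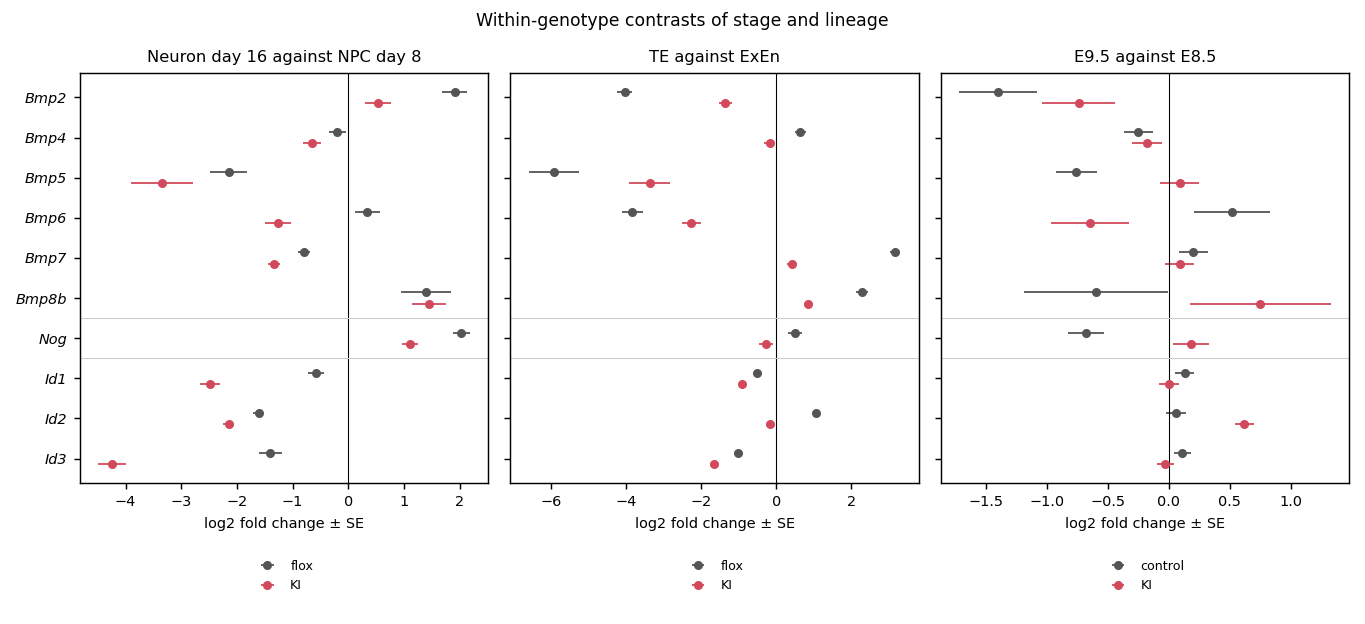
Points give the log2 fold change (horizontal axis, bars ± SE) of each member (vertical axis) for neuron against progenitor, TE against ExEn, and E9.5 against E8.5, in grey for flox or control and red for KI. The red Id1 and Id3 points lie left of the grey ones in the neural panel (-2.48 and -4.24 against -0.58 and -1.40).

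At EB day 4, where flox has 1 library and the single day was not tested, both KI lines were at least 2-fold below flox for 8 of the 10 members (4.43% of 13843 genes were lower by this rule), and the exceptions were Bmp8b and Id3. At day 10 this held for Bmp7 alone (3.91% of genes), and in ESCs for none of the 5 members with at least 1 CPM (7.68% of genes moved in either direction). The summed endothelial markers at day 4 were 225 CPM in flox and 31.2 to 37.1 in KI, and early mesoderm markers 840 CPM and 602 to 676. Cardiac markers summed to 51.6 CPM in flox and a mean of 14.4 in KI, and ExEn markers to 189 and 104 to 112. The pluripotency markers had the opposite order, at 671 CPM in flox and 1204 to 1268 in KI. At day 10 cardiac markers summed to 1603 CPM in flox and 139 to 209 in KI, roof plate markers to 23.9 and 1.17 to 1.33, and pluripotency markers to 46.8 and 107 to 127. ExEn markers at day 10 had the opposite order to day 4, at 1196 to 1379 CPM in KI and less in flox. The part of these cells in the differences of either day was not tested.

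**Figure D5:**
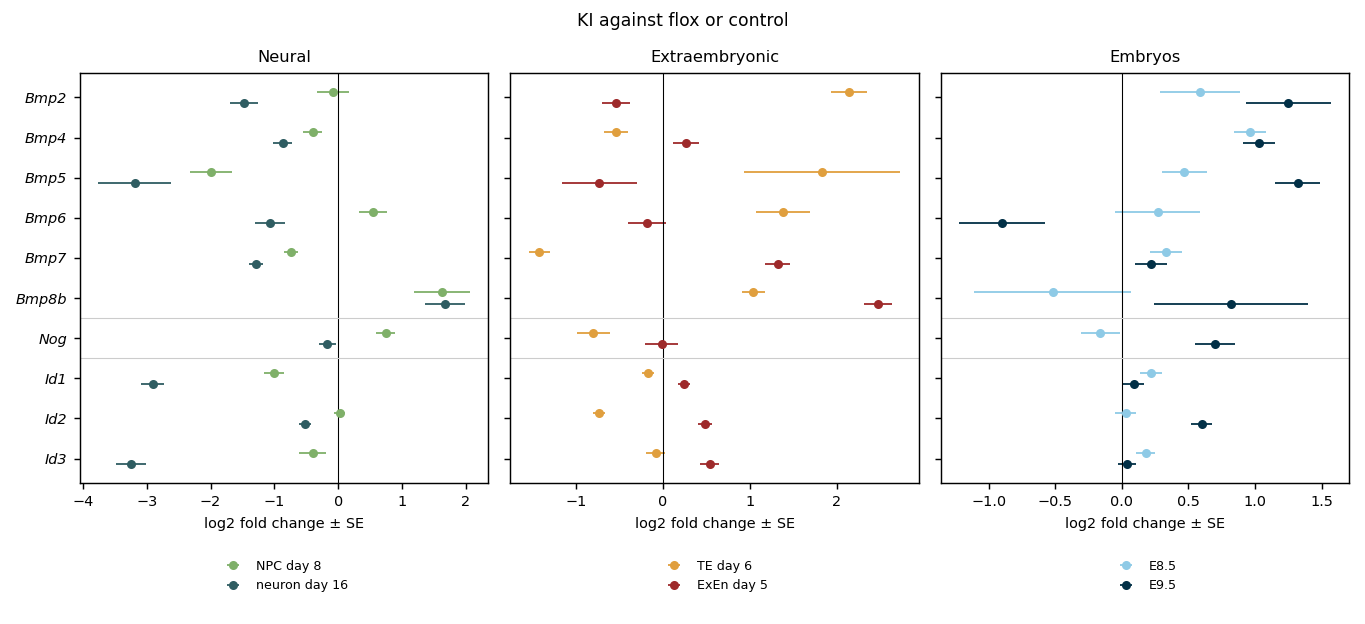
Points give the log2 fold change of KI against flox or control (horizontal axis, bars ± SE) for each member (vertical axis) in the neural cultures, the extraembryonic cultures and the embryos, with 1 colour per stage or lineage. Id1 and Id3 reach -2.91 and -3.25 in neurons, Bmp4 lies at 0.96 and 1.03 in embryos, and Bmp7 lies at -1.42 in TE and 1.32 in ExEn.

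The rest of the pathway was read from a list of 49 other genes: ligands, receptors, SMADs, extracellular antagonists and modulators, intracellular and membrane inhibitors, and further target genes. In KI neurons 22 of 44 tested genes were lower and 4 higher (46.9% of all genes passed), and the median log2 difference was -0.45 against 0.09 over all genes. Those lower included 3 of 5 ligands, 3 of 7 receptors, 2 of 4 SMADs, 7 of 15 antagonists and modulators, 3 of 5 inhibitors and 4 of 8 targets. The targets Msx2 and Atoh8 turned between the days. Msx2, a homeobox target gene, read 10.9 to 11.2 CPM in flox progenitors and 59.8 to 78.7 in KI progenitors (log2 difference 2.68, SE 0.14, edgeR adjusted p = 1.87e-07), then 2.14 to 2.43 in flox neurons and 0.301 to 0.389 in KI neurons (-2.52, SE 0.25, edgeR adjusted p = 9.02e-06). Atoh8, a basic helix-loop-helix gene, was likewise higher in KI progenitors by 2.16 (SE 0.14, edgeR adjusted p = 6.82e-07) and lower in KI neurons by 2.46 (SE 0.17, edgeR adjusted p = 4.79e-07). Dlx3, a homeobox target gene, and the ligand gene Gdf5 were the other leading genes that were lower, at -2.70 (SE 0.53, edgeR adjusted p = 0.00146) and -2.32 (SE 0.57, edgeR adjusted p = 0.00564), the second lost without the KI48 neuron library. Among the genes that were higher, besides Id4, were the co-receptor Rgmb (0.43) and the receptor Acvr2a (0.37), with edgeR adjusted p of 0.009 and 0.031. Rgmb was lost without flox neuron replicate 1, and Acvr2a without flox replicate 2 or either KI library.

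In KI progenitors 8 of 44 list genes were higher and 8 lower (19.5% of all genes passed, median 0.03 against 0.00). With Msx2 and Atoh8, the antagonist Grem1 (2.30, SE 0.38) and the protease Tll1 (1.27, SE 0.17), which cleaves chordin, led the higher genes, with edgeR adjusted p of 0.000876 and 0.000226. The modulator Bmper (-2.43, SE 0.15), the transducer Smad9 (-2.31, SE 0.17), the ligand Gdf6 (-2.06, SE 0.23) and the receptor Acvrl1 (-1.98, SE 0.26) led the lower ones, with edgeR adjusted p from 6.74e-07 to 0.000158. All 3 endothelial markers, which share Acvrl1's known cell type, were lower in these progenitors, summed at 80.7 to 81.1 CPM in flox and 11.1 to 16.7 in KI, and their part was not tested. Bmp8a did not pass in progenitors (0.17, edgeR adjusted p = 0.89) or neurons (0.63, edgeR adjusted p = 0.22).

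In KI TE 15 of 43 list genes were higher and 5 lower (50.9% of all genes passed, median 0.06 against 0.01). Of 15 antagonists and modulators tested, 8 were higher and 1, the antagonist Chrd, was lower (-0.86, SE 0.25, edgeR adjusted p = 0.0101), and Chrd was lost without flox TE replicate 2. The largest differences were those of the target Msx1 (2.86, SE 0.43), the antagonist Fst (2.47, SE 0.38) and Bmper (2.45, SE 0.55), with edgeR adjusted p of 0.00278, 0.00163 and 0.0019. Msx1 read 1.84 to 2.47 CPM in flox TE and 11.4 to 19.2 in KI TE. Gdf6 (-0.93, SE 0.28), Id4 (-0.93, SE 0.22) and Smad1 (-0.58, SE 0.12) were lower, with edgeR adjusted p of 0.0125, 0.00301 and 0.000795, and Gdf6 was lost without flox TE replicate 1 or the KI27 library.

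In KI ExEn 13 of 43 list genes were higher and 6 lower (35.5% of all genes passed, median 0.10 against 0.00), and leaving out either flox library brought the 19 down to 12 or 11. After Bmp8a, the receptor Bmpr1b (1.77, SE 0.35), the ligand Bmp3 (1.74, SE 0.50) and Dlx3 (1.45, SE 0.25) led the higher genes, with edgeR adjusted p of 0.00111, 0.0138 and 0.00164. The target Hey1 (-2.03, SE 0.45), Tll1 (-1.24, SE 0.38), Gdf6 (-0.91, SE 0.26) and the co-receptor Rgma (-0.65, SE 0.17) led the lower ones, with edgeR adjusted p of 0.00256, 0.0187, 0.0121 and 0.0122. Bmp3, Tll1, Gdf6 and Rgma were each lost without at least 1 of the 4 libraries: flox replicate 1 for all 4 genes, flox replicate 2 for Bmp3, Gdf6 and Rgma, KI27 for Bmp3, Tll1 and Gdf6, and KI48 for Rgma. Id4 was higher by 0.80 (SE 0.21, edgeR adjusted p = 0.00921), as Id1, Id2 and Id3 were in their values, and was lost without flox replicate 1 or KI48.

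In KI embryos at E8.5 12 of 45 list genes were higher and 1 lower (5.46% of all genes passed, median 0.18 against -0.01), among them 5 of 8 targets and 3 of 5 inhibitors, and 7 genes in all passed without KI replicate 3. Acvrl1 was higher by 1.16 (SE 0.15, edgeR adjusted p = 0.000131), at 10.8 to 16.1 CPM in controls and 26.3 to 31.5 in KI. All 3 endothelial markers were higher too, summed at 172 to 207 CPM in controls and 235 to 325 in KI, and their part was not tested. Bmper (0.83, SE 0.19) and Gdf6 (0.78, SE 0.21) were also higher, with edgeR adjusted p of 0.0128 and 0.034, and Rgmb was lower (-0.42, SE 0.12, edgeR adjusted p = 0.0389). Each of these 3 was lost without at least 1 library: KI replicate 1 or 3 or control replicate 2 for Bmper, KI replicate 2 or 3 or control replicate 2 or 3 for Gdf6, and for Rgmb any of control replicates 1, 2 and 3 and KI replicates 1 and 3. Id4 did not pass (0.65, SE 0.22, edgeR adjusted p = 0.0923).

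At E9.5 13 of 45 list genes were higher and 5 lower (29.5% of all genes passed, median 0.12 against 0.01). Smad9 (1.35, SE 0.27), Grem1 (1.16, SE 0.22), Msx2 (1.04, SE 0.08) and Gdf6 (0.88, SE 0.20) led the higher genes, with edgeR adjusted p of 0.00107, 0.000585, 5.88e-08 and 0.00257. Msx2 read 31.6 to 34.7 CPM in controls and 65.1 to 70.7 in KI. Bmp3 (-1.74, SE 0.45), the antagonist Nbl1 (-1.58, SE 0.31) and Rgmb (-0.77, SE 0.11) were lower, with edgeR adjusted p of 0.0064, 0.000794 and 6.08e-05. Cer1, which encodes a secreted antagonist of BMP and Nodal, had 47 reads over the 3 control libraries and 0 in KI, at least 14.7-fold lower against a floor of 3 reads over the group (edgeR adjusted p = 0.00392). Id4 did not pass (0.02, SE 0.20, edgeR adjusted p = 0.958), and its sign turned under other size factors.

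In the EB course 0 of 47 list genes were higher and 2 lower over the 3 days (0.730% of all genes passed, median -0.20 against -0.01). Cer1 passed through day 4, where flox had 271 reads and the KI lines 1 and 0. The summed ratio was 609 (95% counting interval 108 to 24133). The fit averaged over the 3 days gave edgeR adjusted p = 0.0118 (0.00832 to 0.571 over 15 alternatives, 0.459 in DESeq2). Cer1 passed the filter on low counts only through the day 4 flox library, so nothing is read from these p-values. The pseudoreceptor gene Bambi was lower by 0.77 (SE 0.12, edgeR adjusted p = 0.0435) and was lost in 11 of 16 alternatives (adjusted p 1.32e-05 to 0.733), and no list gene passed without the KI27 or KI48 line or without the flox, KI27 or KI48 library of day 4. At day 4 both KI lines were at least 2-fold below flox for 10 of 36 list genes (4.43% of all genes were lower) and above it for 0. The 10 were Smad6, Smad9, Bambi, Fst, Cer1, Bmper, Msx1, Msx2, Atoh8 and Dlx3. Fst read 153 CPM in flox and 39.5 and 42.2 in KI, and Smad6, an inhibitory SMAD and target of the pathway, 38.2 against 12.0 and 13.0. At day 10 the same rule gave 5 of 44 list genes lower (3.91% of all genes) and 3 higher. In ESCs it gave 1 of 26 lower and 1 higher (7.68% of all genes in either direction).

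The genes with the pattern most like that of a member were taken as the 3 with the highest Pearson correlation of group means over the 18 groups, on the log2(CPM + 0.5) scale, among 14850 genes. For Bmp4 these were Hand1 (r = 0.975), which is also 1 of the 7 trophoblast markers, Tmem88 (0.933) and Tbx20 (0.932), for Id1 Cdc42ep1 (0.948), Tpm4 (0.941) and Podxl (0.936), and for Id3 Smad4 (0.904), Xpc (0.903) and Pdk3 (0.901). The points share libraries, lines and depth, so these values are a description.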

How the data were processed

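RNA libraries, 37 in number and made from purified poly(A) RNA per the labels' protocols, were analysed, and the other 63 of the 100 samples in the series (chromatin and accessibility libraries, inputs and an RNA library labelled DKO) were not used here. Each deposited table gives, per the file headers, a read count and an RPKM value for 29082 transcripts. The counts are whole numbers, not normalized, and the deposited RPKM is reads scaled to transcript length and library size, on a denominator set by the authors. The submitters' processing notes name bcl2fastq, Bowtie2, STAR and SICER 1.1 and the build mm9, without roles. The counter, the annotation and the use of strand are not given in the sources used here, so overlapping genes on opposite strands cannot be separated. Accessions were matched to RefSeq symbols (28432 matched, 650 not), and the transcript with the most reads over all libraries stood for each gene. Each member has a single transcript.

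Genes were tested with edgeR 4.0.16 in R 4.3.3: filterByExpr (minimum count 10), TMM scaling, robust quasi-likelihood fits and Benjamini-Hochberg adjustment over all genes tested, with called meaning an adjusted p under 0.05. Each SE was taken from the estimate and its F statistic. The 8 neural, 8 extraembryonic, 12 embryo and 6 KI EB libraries each entered 1 fit without covariates. The EB course of KI against flox took day as a factor. TMM factors ran from 0.881 to 1.073, and CPM values are not TMM-scaled. At single EB days a gene counted when both KI lines were at least 2-fold from flox on log2(CPM + 0.5), among genes reaching 1 CPM. Counting intervals are exact at 95%. The members and lists were chosen with earlier results of these data known. The text names every member, the called list genes with the largest change (at most 4 a direction), and Id4 and Bmp8a, except 1 list gene that is not reported here. Smad6 and the other genes listed for EB day 4, the antagonist Fst there included, were named after their values were seen.

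The 2 flox progenitor libraries were more alike (chi-square 1.50 per degree of freedom) than other replicate pairs (2.76 to 54.83) and were kept as 2 samples. KI27 and KI48 are the same lines in every KI group, and same-numbered KI libraries deviated together (r from 0.11 to 0.26). The numbers in the E8.5 titles gave r = 0.22, 0.26 and 0.10 between KI and control libraries and were taken as pairs (each r over 0.1). The main fits, and so the main p-values, left out this pairing and that of the KI lines. Both entered only through the replicate block among the alternatives. At E9.5, 1 number is shared by 2 KI and 2 control libraries (-0.02 to 0.09) and the other by 1 of each (0.12), so not every r was over 0.1 and they were not taken as pairs, nor were the flox replicate numbers (0.00 and 0.03). Alternatives were RLE size factors, no filter, summed transcripts, DESeq2 1.42.0, each library left out, only the groups compared, and a replicate block.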

Additional observations from a re-analysis of the deposited data

Results flagged for a closer look

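Each item below was picked out because KI differed from flox in opposite directions, or by different amounts, in 2 stages or lineages. The difference of the KI effect between settings was tested over all genes with edgeR. It passed for 24 of 44 tested pathway list genes between neurons and progenitors (33.2% of all genes), 12 of 43 between TE and ExEn (35.3%) and 5 of 45 between E9.5 and E8.5 (6.63%). The values that follow are for the list genes named in the report for both settings whose difference passed. It was 1.20 for Id4 between neurons and progenitors (SE 0.16, adjusted p = 0.000208), -5.20 for Msx2 (SE 0.28, adjusted p = 4.21e-07), -4.62 for Atoh8 (SE 0.22, adjusted p = 1.67e-07), and -1.73 for Id4 between TE and ExEn (SE 0.31, adjusted p = 0.00058), each on the log2 scale.

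For the members the difference was not tested, since the KI contrast chose them, and they are given because every KI library lay on one side of every flox library in 1 setting and on the other side in the second. Of all genes tested, 21.2% met this rule between neurons and progenitors and 17.8% between TE and ExEn, against 1 and 6 of the 10 members, and nothing is read from these counts. Bmp6 was 0.54 in progenitors and -1.07 in neurons (log2, KI against flox). Between TE and ExEn the log2 values were 2.14 and -0.54 for Bmp2, -0.54 and 0.27 for Bmp4, 1.38 and -0.18 for Bmp6, -1.42 and 1.32 for Bmp7, -0.17 and 0.24 for Id1, and -0.73 and 0.49 for Id2.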

How the results depend on the processing

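Of 156 recomputed counts of called genes, 140 stayed within 1.5 times the reported count. For E9.5 against E8.5 in KI embryos the 1 called member became 2, Id2 and Bmp2, with DESeq2 or with only those 2 groups fitted, and 1 to 2 with a library left out (Id2 and Bmp8b without E8.5 replicate 3). Pathway genes called in KI numbered 11 to 20 with a library left out in ExEn (19 reported), 7 to 11 at E8.5 (13 reported) and 0 to 2 in the EB course (2 reported, 1 with summed transcripts).

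Of 800 recomputed tests of members, 765 kept their direction and side of the threshold, and of 573 of named pathway genes 504 did. Of 759 recomputed KI differences of members, which carry no test, 681 moved by less than the spread between replicates and 78 by more. None of the reversed ones was called in the main analysis. In KI TE against ExEn, Bmp4 ranged from -0.39 to 0.03 over single libraries left out (0.01 without TE KI27, 0.03 without ExEn KI48), and Nog from -0.68 to 0.02 (without TE KI27). In KI E9.5 against E8.5, Id1 read -0.01 with RLE size factors, DESeq2 or without E8.5 replicate 2, -0.04 without E8.5 replicate 3 and -0.05 without E9.5 replicate 1, Id3 (-0.11 to 0.02) 0.00 without E8.5 replicate 2 and 0.02 without E9.5 replicate 3, Bmp7 (-0.02 to 0.15) -0.02 without E8.5 replicate 3, and Bmp5 (-0.00 to 0.14) -0.00 without E9.5 replicate 2. In KI against reference, Bmp8a read -0.01 (to 0.36) in progenitors without KI27 and, in the EB course (from -0.62), 0.34 without the day 4 flox library and 0.11 without KI48. Id4 read 0.01 in the EB course (from -1.07) without the ESC flox library and 0.02 without all ESC libraries, and at E9.5 -0.00 with RLE size factors or DESeq2, -0.07 and -0.04 without KI replicate 1 or 3 and -0.13 (to 0.15) without control replicate 3. The causes were not tested.

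With the replicate block, members called numbered 9 for neurons against progenitors in each genotype, 10 and 7 for TE against ExEn in flox and KI, and 9 in each KI EB step, and pathway genes called 16 at E8.5 and 18 at E9.5. The block changed the calls of Id3 from EB day 4 to day 10 and, in flox, of Bmp6 from progenitor to neuron (0.34, adjusted p = 0.0326), where the numbers do not pair the libraries. It changed no other call of a member or named gene. Depth limits Bmp5 in TE, ESCs and KI neurons, Bmp8b in neural and embryo libraries and Cer1.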
